A study of Mus musculus with 25 samples.

Results

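GABA-A receptors are the chloride channels that carry most fast inhibition in the forebrain, and 7 genes for their subunits, Gabrd, Gabra4, Gabra5, Gabra3, Gabrb1, Gabrb2 and Gabrg1, were followed here among 24421 gene symbols counted in mouse hippocampus. The 7 were taken by symbol, as a list of subunits drawn up with earlier results of these data known, and all 7 passed the filter on low counts that left 15912 genes. They were split by textbook location into 3 extrasynaptic subunits (Gabrd, Gabra4 and Gabra5) and 4 others, called synaptic for short (Gabra3, Gabrb1, Gabrb2 and Gabrg1). Beta subunits enter receptors at both places, so the second name is a convention.

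The study sequenced hippocampal RNA from mice that carry 1 disrupted copy of the sodium channel gene Scn1a, a model of Dravet syndrome, and from wild-type mice. At postnatal day 24 (P24), [129S6/SvEvTac x C57BL/6]F1 mice, here F1, gave 3 libraries from Scn1a+/- mice labelled with seizures, 2 from Scn1a+/- mice labelled without seizures and 3 from wild-type mice. At the same age 129S6/SvEvTac mice, here 129S6, gave 3 libraries labelled Scn1a+/- and 3 labelled wild type. At postnatal day 14 (P14), there were 3 Scn1a+/- and 3 wild-type F1 libraries, and 3 Scn1a+/- and 2 wild-type 129S6 libraries. None of the mice outside the first group was labelled with seizures. Every library was a pool, of 3 to 4 mice in the seizure group and of 12 to 16 mice elsewhere, so pool size differed together with seizures. The labels do not say whether the pools of a group came from separate litters or days, so the tests below speak only of the spread among pools.

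A GABA-A receptor joins alpha and beta subunits with a gamma or a delta subunit. Gamma-containing receptors gather at synapses and give brief inhibition. Delta-containing receptors, which in dentate granule cells pair mainly with the alpha4 subunit, sit outside synapses, respond to low ambient GABA and to neurosteroids, and give a steady current. Alpha5-containing receptors give a large part of that steady current in hippocampal pyramidal cells. In whole-hippocampus RNA, fewer cells of a type and less RNA per cell cannot be told apart.

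Count totals ran from 7436442 to 25520050 per library. Scn1a itself averaged 79.9 ± 10.3 CPM (CPM, the usual unit of counts scaled to library size; SD, n = 3) in the seizure group, 104 ± 16.0 CPM (n = 2) in P24 F1 Scn1a+/- mice without seizures and 127 ± 2.79 CPM (n = 3) in P24 F1 wild type. Its mean was also lower in Scn1a+/- than in wild-type libraries at P14 in both strains, and of these differences only those of the seizure group passed the test used below. In P24 129S6 it went against the labels, at 140 ± 4.95 CPM in the libraries labelled Scn1a+/- and 110 ± 0.740 CPM in those labelled wild type (n = 3 each), so both groups are named here by their labels and no direction is drawn from that genotype contrast. The seizure libraries also differed more from one another than the libraries of any other group, with a chi-square per degree of freedom over genes of 18.3 to 40.2 between pairs, against 2.42 to 8.59 in the other groups.

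The genes lie on chromosomes 4 (Gabrd), 5 (Gabrg1, Gabra4 and Gabrb1), 7 (Gabra5), 11 (Gabrb2) and X (Gabra3). On the mm10 assembly Gabra4 (chr5:71569734-71658308, minus strand) and Gabrb1 (chr5:71657921-72149572, plus strand) stand head to head and overlap by 388 bases at their starts. The library kit does not mark strand, so reads in those 388 bases cannot be told apart. The start regions of both genes are shown, and each holds only the 50 bases at its own end of the shared stretch. The middle of the stretch is not shown, and how many reads fell in the stretch was not tested. Each sequence runs 5′ to 3′ on the strand of its gene, from 250 bases before the start to 50 bases after it. Capitals mark the bases transcribed in the named gene (RefSeq, GRCm38.p6), and the lower-case bases lie within the body of the other gene. The Gabra4 window is chr5:71658259-71658558 and the Gabrb1 window shown is chr5:71657671-71657970. Another annotated Gabrb1 start, with its window at chr5:71699682-71699981, lies outside Gabra4 and is not shown.
Gabra4: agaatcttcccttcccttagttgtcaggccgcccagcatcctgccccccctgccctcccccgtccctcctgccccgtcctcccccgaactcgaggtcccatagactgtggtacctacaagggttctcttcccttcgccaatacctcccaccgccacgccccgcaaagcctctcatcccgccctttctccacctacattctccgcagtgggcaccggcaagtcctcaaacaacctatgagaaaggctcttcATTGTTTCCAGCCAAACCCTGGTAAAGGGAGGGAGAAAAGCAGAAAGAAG
Gabrb1: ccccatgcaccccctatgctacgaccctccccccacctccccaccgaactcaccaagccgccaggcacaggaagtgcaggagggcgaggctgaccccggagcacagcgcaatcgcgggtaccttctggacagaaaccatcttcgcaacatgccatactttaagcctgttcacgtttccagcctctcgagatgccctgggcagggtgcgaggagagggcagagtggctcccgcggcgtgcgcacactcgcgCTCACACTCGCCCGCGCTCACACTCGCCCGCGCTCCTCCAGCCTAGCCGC
A window was at hand for 6 of the 7 genes, all but Gabrd. Motifs of activity-driven factors were searched on both strands in these windows, namely the cyclic AMP response element TGACGTCA, the AP-1 site TGACTCA and the Egr sites GCGTGGGCG and GCGGGGGCG. None of the 6 genes held any of them. Over 32851 windows of 300 bases from all genes, the shares with a match were 1.79%, 5.2%, 0.612% and 2.91% in that order.

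The subunits differed widely in abundance. Per kilobase of exon, using all annotated exons of each gene, P24 F1 wild-type libraries held 26.7 ± 1.10 CPM per kilobase of Gabrb2 and 25.4 ± 0.764 of Gabra5 (SD, n = 3), whose library values overlapped. Gabra4 stood at 15.0 ± 0.404 CPM per kilobase and Gabra3 at 8.70 ± 0.378. Gabrd stood at 3.71 ± 0.262 CPM per kilobase, above Gabrg1 at 2.74 ± 0.316 and Gabrb1 at 2.38 ± 0.116. With this length, Gabra4 and Gabra3 came next, in that order, below Gabra5 and Gabrb2 in all 9 groups, while Gabra5 and Gabrb2 exchanged the top places between groups. In the seizure group Gabrd was the lowest of the 7, at 1.59 ± 0.268 CPM per kilobase. These places depend on the length used. With the length of the canonical transcript alone, Gabrd ranked 5 of 7 in the seizure group at 5.12 ± 0.867 CPM per kilobase, and Gabra5 was first in every group. Gabra4 was then above Gabrb2 in the seizure group (40.7 against 36.5 CPM per kilobase) and in P24 F1 Scn1a+/- without seizures (37.9 against 37.5).

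**Figure D1:**
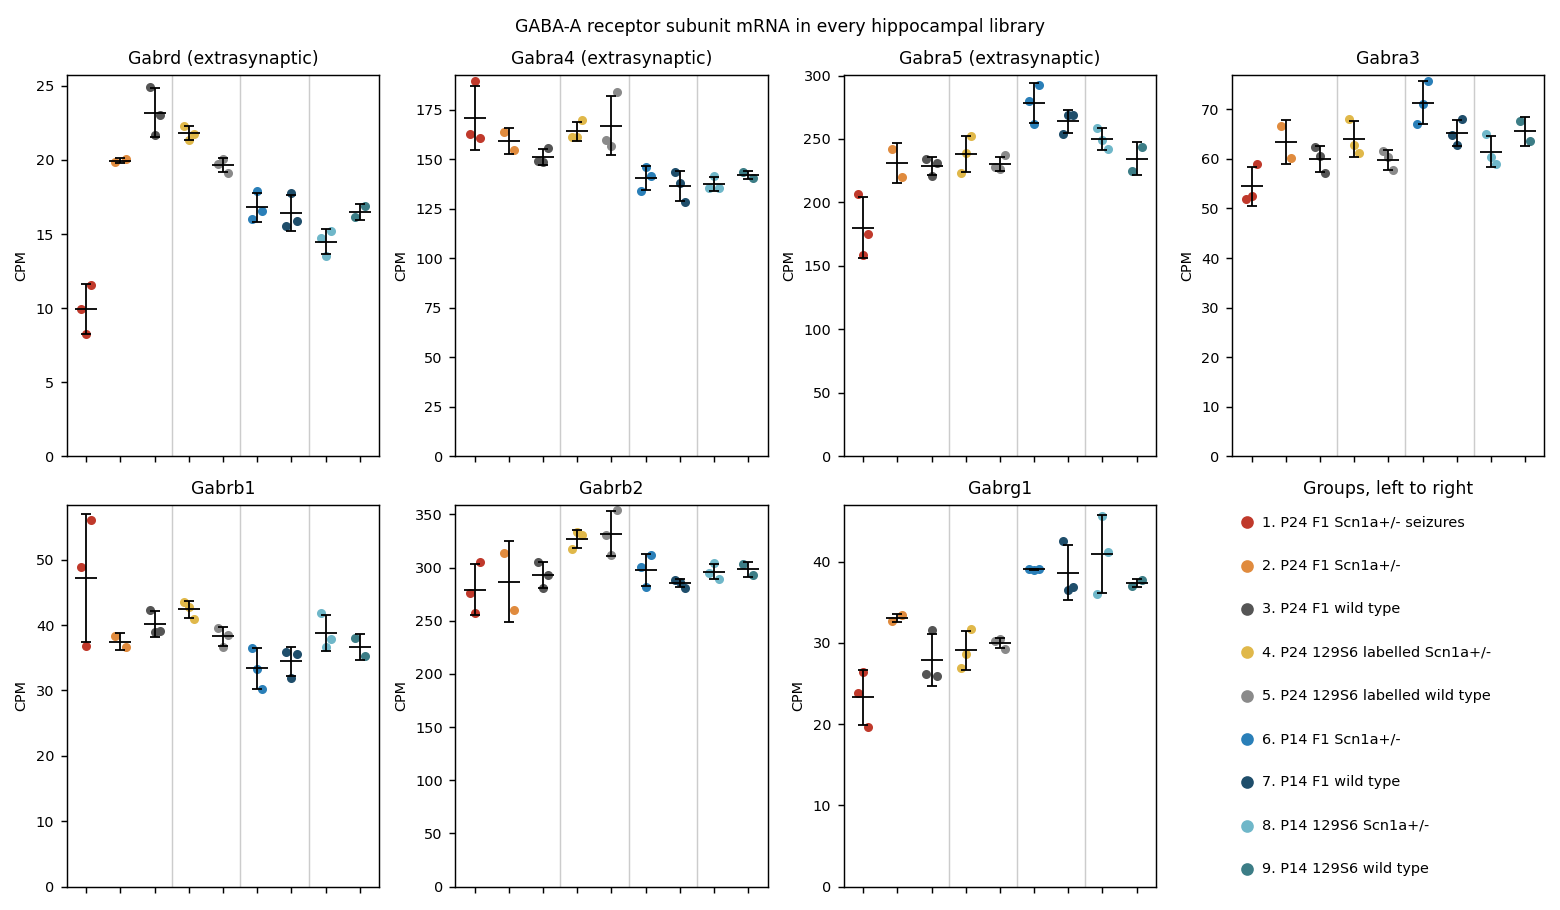
Level of each subunit gene in CPM (vertical axis, from 0) in all 25 libraries, with the mean and SD of each group in black; groups run left to right as in the key. Gabrd in the 3 seizure libraries, at 8.23 to 11.6 CPM, lies below the other 22 libraries, whose lowest value is 13.5 CPM.

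The seizure group was first set against wild type of the same age and strain. Of the 7 subunit genes, 2 passed the test (edgeR quasi-likelihood, Benjamini-Hochberg adjusted p under 0.05), and both, Gabrd and Gabra5, were lower with seizures. Across all tested genes 22.5% passed in either direction and 10.1% were lower. The median log2 difference of the 7 was -0.14, against 0.0097 for all tested genes. Seizure and wild-type libraries did not overlap for 3 of the 7 genes, and for 4989 of 15912 tested genes. Lack of overlap therefore does not by itself set a gene apart here. The 2 genes that fell are both extrasynaptic, while the other extrasynaptic gene, Gabra4, did not fall.

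Gabrd, the delta subunit of extrasynaptic receptors, was at 9.93, 8.23 and 11.6 CPM in the seizure libraries, against 24.9, 21.7 and 23.0 CPM in wild type. The groups lay far apart, and the highest seizure library was below every other library of the series. The log2 difference was -1.22 ± 0.10 (SE), with an adjusted p of 4.98e-11. It ran from -1.36 to -1.11 when each library was left out in turn.

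Gabra5, the alpha subunit of pyramidal-cell extrasynaptic receptors, was at 206, 159 and 175 CPM in seizure libraries, against 234, 221 and 231 CPM in wild type. The groups did not overlap. Its log2 difference was -0.35 ± 0.07 with an adjusted p of 0.000584. With only the 6 libraries compared in the fit, the same difference had an adjusted p of 0.0635.

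Gabra4, the usual alpha partner of delta, was at 163, 190 and 161 CPM in seizure libraries, against 149, 149 and 156 CPM in wild type. All 3 seizure libraries were above all 3 wild-type libraries, but the log2 difference of 0.18 ± 0.07 did not pass (adjusted p 0.0563). Without seizure replicate 1 the adjusted p was 0.0430, and without replicate 3 it was 0.0167. The fall of the delta subunit mRNA was thus not matched by a fall in that of its usual partner.

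None of the 4 synaptic genes passed against wild type, although with no filter on low counts Gabrb1 (adjusted p 0.0490) and Gabrg1 (adjusted p 0.0450) did, which made 4 of the 7. Gabrg1, a less common gamma subunit that is also made by glial cells, was at 23.9, 26.4 and 19.6 CPM in seizure libraries, against 26.1, 31.6 and 25.9 CPM in wild type. These ranges overlapped, and the log2 difference was -0.26 ± 0.10 (adjusted p 0.0529). Gabrb1, a beta subunit, was at 48.9, 36.8 and 56.1 CPM in seizure libraries, against 42.4, 38.9 and 39.0 CPM in wild type, with 1 seizure library below all wild-type libraries. Its log2 difference was 0.24 ± 0.10 (adjusted p 0.0744), and without that library, replicate 2, it was 0.39 (adjusted p 0.000679). Gabra3, an alpha subunit, differed by -0.14 ± 0.07 (adjusted p 0.149), and Gabrb2, the most abundant beta subunit of the 7, by -0.07 ± 0.07 (adjusted p 0.525). Leaving out 1 library also brought the adjusted p of Gabra3 to 0.0177 (seizure replicate 3) and that of Gabrg1 to 0.0123 (seizure replicate 2), 0.0402 (wild-type replicate 1) and 0.0402 (wild-type replicate 3).

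Against Scn1a+/- mice of the same age and strain without seizures, 4 of the 7 genes passed, 3 of them lower with seizures and 1 higher. The shares over all tested genes were 15.7% in either direction, 7.00% lower and 8.72% higher, and the medians were -0.22 for the 7 genes and 0.0105 for all. The groups did not overlap for 4 of the 7 genes, and for 5092 of 15912 tested genes. This comparison uses the same 3 seizure libraries as the one above, so the values stand side by side and do not add to each other.

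Gabrd was at 19.8 and 20.1 CPM in the Scn1a+/- libraries without seizures, above all 3 seizure libraries, with a log2 difference of -1.01 ± 0.12 for seizures (adjusted p 8.27e-08). Gabra5 was at 242 and 220 CPM without seizures, above all 3 seizure libraries, and differed by -0.36 ± 0.08 (adjusted p 0.00187). Gabrg1 was at 32.7 and 33.4 CPM without seizures, also above all 3 seizure libraries, and differed by -0.51 ± 0.11 (adjusted p 0.00129). Gabrb1 was at 38.4 and 36.6 CPM without seizures, the first within the seizure range and the second just below it, and was higher with seizures by 0.34 ± 0.11 (adjusted p 0.0362).

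That Gabrb1 call was lost when any of 4 libraries was left out, with adjusted p of 0.0766 without seizure replicate 1, 0.231 without seizure replicate 3, and 0.115 and 0.237 without replicate 1 and replicate 2 of the Scn1a+/- group without seizures. With only the 5 libraries compared in the fit, Gabrd alone of the 7 passed, and the adjusted p was 0.251 for Gabra5, 0.0791 for Gabrg1 and 0.358 for Gabrb1. Gabra3 differed by -0.22 ± 0.08 (adjusted p 0.0596), with all seizure libraries below both others. Leaving out seizure replicate 3 brought that to -0.29 (adjusted p 0.00742). The log2 differences of Gabra4, 0.10 ± 0.08, and Gabrb2, -0.04 ± 0.08, did not pass (adjusted p 0.410 and 0.821).

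**Figure D2:**
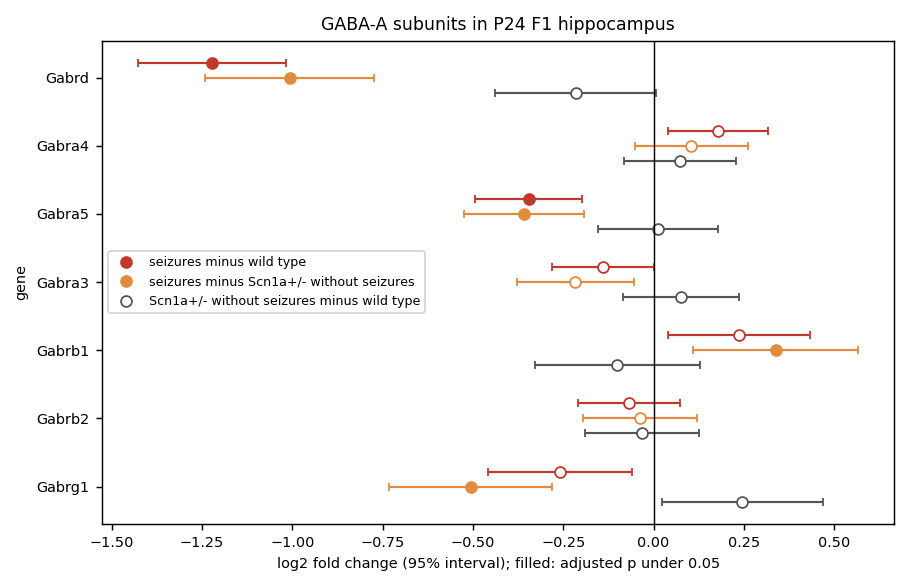
Log2 fold change (horizontal axis) with its 95% interval for the 7 genes in 3 P24 F1 comparisons; filled points have an adjusted p under 0.05. Gabrd, at -1.22 and -1.01, stands far left of the other genes in both seizure comparisons, while in Scn1a+/- mice without seizures minus wild type every point is open.

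Markers of the cells that hold these receptors moved unevenly in the same libraries. Of 10 dentate granule cell markers, the cells with the densest delta-containing receptors, 3 were higher and 5 lower with seizures than in wild type, with a median log2 difference of -0.13. The share over all tested genes was 22.5% in either direction. Dsp, a desmosome protein gene, averaged 30.9 CPM with seizures against 84.7 CPM in wild type (log2 difference -1.45 ± 0.12), and Tdo2, a tryptophan-degrading enzyme gene, 1.47 CPM with seizures against 10.4 CPM in wild type (-2.79 ± 0.26). Lct, the lactase gene, differed by -1.44 ± 0.17 and Plekha2 by 1.08 ± 0.09, and Prox1, the transcription factor that defines these cells, was at a log2 difference of 0.11 that did not pass. Summed over the list, seizure libraries held 538 to 621 CPM and wild-type libraries 614 to 651 CPM, and no marker was at 0 in either group. The part of granule cell number in the Gabrd difference was not tested.

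Markers of other lists passed as well, and their part was not tested either. Over all tested genes 22.5% passed in this comparison in either direction and 10.1% were lower. The counts of interneuron and microglia markers given below are near that 22.5%. Thalamic and habenular markers, from neighbouring tissue that also makes delta and alpha4 subunits, were lower for 4 of 8 and summed to 109 to 116 CPM in seizure libraries and 132 to 156 CPM in wild type. Neocortical markers were lower for 4 of 8, CA1 markers for 4 of 8 and mature oligodendrocyte markers for 6 of 8, with none higher. Astrocyte markers were higher for 3 of 10 and lower for 6, and their sum, in which the filament gene Gfap averaged 2917 CPM with seizures and 587 CPM in wild type, was 8930 to 10081 CPM in seizure libraries and 7658 to 8275 CPM in wild type. CA2 and CA3 markers were higher for 2 of 8 and lower for 1, interneuron markers higher for 2 of 12 and lower for 1, microglia markers higher for 2 of 8, oligodendrocyte precursor markers higher for 1 of 7, and choroid plexus markers for 0 of 7 in either direction. Gabra6, the alpha subunit of cerebellar granule cells, was at 0 to 8.78 CPM across the series and above 1 CPM in 4 libraries, none of them in P24 F1.

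**Figure D3:**
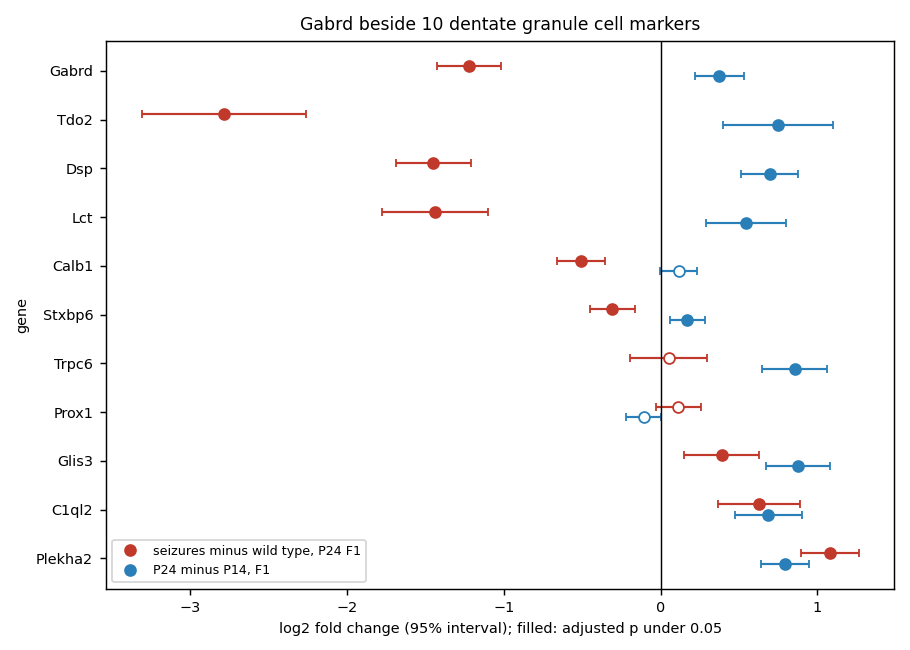
Log2 fold change (horizontal axis) with its 95% interval for Gabrd and 10 dentate granule cell markers, for seizures minus wild type in P24 F1 and for P24 minus P14 in F1; filled points have an adjusted p under 0.05. Gabrd, Tdo2, Dsp and Lct lie left of 0 with seizures and right of 0 with age, while Plekha2 and C1ql2 lie right of 0 in both.

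Of 22 genes that anchor or traffic GABA-A receptors, 2 were higher and 4 lower in the seizure group than in wild type, with a median log2 difference of -0.07 against 0.0097 for all tested genes. That count, 6 of 22, is near the 22.5% of all tested genes called in this comparison, and the values of single genes are given as a description. Hap1, which helps return receptors to the cell surface, averaged 94.8 CPM with seizures against 171 CPM in wild type (-0.85 ± 0.10, adjusted p 4.92e-08). Shisa7, an auxiliary protein of the receptor, averaged 209 CPM with seizures against 296 CPM in wild type (-0.50 ± 0.08), and Mdga1, a cell-surface protein of synapses, 73.9 CPM with seizures against 104 CPM in wild type (-0.49 ± 0.09). Iqsec3, a guanine nucleotide exchange factor of inhibitory synapses, averaged 504 CPM with seizures against 388 CPM in wild type (0.38 ± 0.09, adjusted p 0.00268). Against Scn1a+/- mice without seizures the list also had 2 higher and 4 lower genes, where 15.7% of all tested genes passed. Of 11 other GABA-A and GABA-rho subunit genes, 7 passed the filter on low counts and 0 passed the test in either seizure comparison.

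In mice without seizures, Scn1a+/- was set against wild type in each strain and age, to ask whether the mutation alone went with a change in subunit mRNA. By edgeR, 0 of the 7 genes passed in any of the 4 comparisons. The background was 0% in each, that is 0 of all tested genes, and DESeq2 likewise called 0 genes, although 889 genes in P24 F1, 471 in P24 129S6 by labels, 724 in P14 F1 and 391 in P14 129S6 had an unadjusted p under 0.05. In P24 F1 the count over all genes was 200 in a fit without the seizure libraries, 9 with no filter on low counts and 3 with only the libraries compared, and 0 of the 7 subunit genes were among them in each. Under the same alternatives it was at most 4 in the other 3 comparisons. These comparisons had 2 or 3 libraries a group. Scn1a itself did not pass in any of the 4, so the lack of calls does not show that the mutation left subunit mRNA unchanged.

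Gabrd was below wild type in P24 F1 mice without seizures, at 19.8 and 20.1 CPM in Scn1a+/- against 24.9, 21.7 and 23.0 CPM in wild type. The groups did not overlap, which was also so for 4634 of 15912 tested genes in this comparison. The log2 difference of Gabrd, -0.22 ± 0.11, had an adjusted p of 0.833, with an interval of -0.44 to 0.0078. Its other 3 differences were 0.15 ± 0.10 in P24 129S6 by labels, 0.03 ± 0.11 in P14 F1 and -0.18 ± 0.12 in P14 129S6. For the same 4 comparisons in that order, Gabra4 differed by 0.07, -0.02, 0.04 and -0.04, and Gabra5 by 0.01, 0.05, 0.08 and 0.09. Gabra3 differed by 0.08, 0.09, 0.13 and -0.10, with no groups apart. Gabrb1 differed by -0.10, 0.15, -0.04 and 0.08, and Gabrb2 by -0.03, -0.02, 0.06 and -0.01. Gabrg1 differed by 0.25 ± 0.11 in P24 F1, where both Scn1a+/- libraries were above wild type, and by -0.04, 0.02 and 0.13 in the others. The widest 95% interval among these 28 differences, that of Gabrd in P14 129S6, ran from -0.42 to 0.05.

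Gabrd and Gabra4 were higher and Gabrg1 was lower at P24 than at P14 in both strains. In F1, with both genotypes without seizures averaged, 6 of the 7 genes passed, 3 higher and 3 lower at P24. The background was 38.4% of tested genes in either direction, 19.0% higher and 19.4% lower, and the median log2 difference was -0.0090 for the 7 genes against 0.0013 for all. In 129S6, 4 of the 7 passed, 3 higher and 1 lower, where 34.3% of tested genes passed, 17.3% higher and 17.1% lower. The medians there were 0.10 and 0.0075. The ages did not overlap for 5 of the 7 genes in F1 and for 4 in 129S6. The same held for 3967 of 15912 tested genes in F1 and 3884 in 129S6, so it does not by itself set a gene apart.

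Gabrd was higher at P24 in both strains. In F1 it had a lowest, median and highest value of 19.8, 21.7 and 24.9 CPM at P24 (n = 5), against 15.6, 16.3 and 17.9 CPM at P14 (n = 6). The log2 difference was 0.38 ± 0.08 (adjusted p 0.000225). In 129S6 the values were 19.2, 20.7 and 22.3 CPM at P24 (n = 6), against 13.5, 15.2 and 16.9 CPM at P14 (n = 5), a difference of 0.42 ± 0.08 (adjusted p 6.56e-05). The ages did not overlap in either strain. The P24 F1 libraries without seizures enter both this comparison and the seizure comparisons, on opposite sides.

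Gabra4 was higher at P24 as well. In F1 the lowest, median and highest values were 149, 155 and 164 CPM at P24, against 128, 140 and 146 CPM at P14, with a log2 difference of 0.16 ± 0.05 (adjusted p 0.0124). In 129S6 they were 157, 161 and 184 CPM at P24, against 136, 141 and 143 CPM at P14, with 0.24 ± 0.05 (adjusted p 0.000408). Neither strain showed overlap between ages, and without replicate 1 of the P24 F1 Scn1a+/- libraries the F1 adjusted p was 0.0566.

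Gabrg1 was lower at P24 in both strains. Its lowest, median and highest values in F1 were 25.9, 31.6 and 33.4 CPM at P24, against 36.5, 39.0 and 42.5 CPM at P14, a log2 difference of -0.35 ± 0.07 (adjusted p 0.000301). In 129S6 they were 27.0, 29.7 and 31.6 CPM at P24, against 36.0, 37.7 and 45.5 CPM at P14, a difference of -0.40 ± 0.07 (adjusted p 6.20e-05). Again no P24 library reached the P14 range.

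The remaining genes passed in 1 strain each. Gabra5 in F1 was at 220, 231 and 242 CPM at P24 (lowest, median and highest), against 254, 269 and 293 CPM at P14, and fell by 0.24 ± 0.06 on the log2 scale (adjusted p 0.000861), while in 129S6 its difference was -0.05 ± 0.05 (adjusted p 0.556). Gabra3 differed by -0.15 ± 0.05 in F1 (adjusted p 0.0309) and by -0.03 ± 0.05 in 129S6 (adjusted p 0.664). Gabrb1, whose gene body overlaps that of Gabra4 by 388 bases, differed by 0.19 ± 0.08 in F1 (adjusted p 0.0495) and 0.10 ± 0.08 in 129S6 (adjusted p 0.354). Gabrb2 differed by -0.01 ± 0.05 in F1 (adjusted p 0.912) and 0.15 ± 0.05 in 129S6 (adjusted p 0.0257).

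A call in 1 strain alone does not show that the strains differ, and the test of the difference between the age changes called 0 of the 7 genes and 0.00628% of all tested genes. For Gabra5 the F1 change minus the 129S6 change was -0.19 ± 0.08 (adjusted p 0.575), for Gabrb2 -0.16 ± 0.07 (0.607), for Gabra3 -0.11 ± 0.08 (0.738) and for Gabra4 -0.08 ± 0.07 (0.822). For Gabrb1 it was 0.10 ± 0.11 (0.862), for Gabrd -0.04 ± 0.11 (0.949) and for Gabrg1 0.05 ± 0.11 (0.936). With F1 wild-type libraries alone at both ages, 3 genes passed, and Gabra4 (0.15, adjusted p 0.115), Gabra3 (-0.12, 0.224) and Gabrb1 (0.22, 0.105) did not. Leaving out single libraries removed the F1 call of Gabrb1 in 10 of 11 fits (highest adjusted p 0.140) and of Gabra3 in 4 of 11 (highest 0.179), and the 129S6 call of Gabrb2 in 6 of 11 (highest 0.116).

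**Figure D4:**
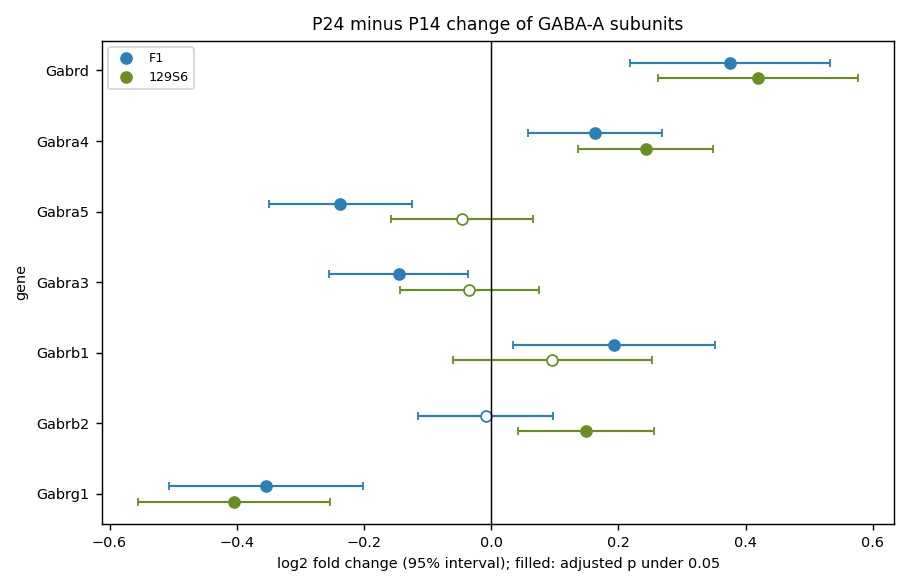
Log2 fold change between P24 and P14 (horizontal axis) with its 95% interval for the 7 genes, in F1 and in 129S6; filled points have an adjusted p under 0.05. Gabrd and Gabra4 lie right of 0 and Gabrg1 left of 0 in both strains, and the intervals of the strains overlap for every gene.

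Over the same ages the dentate granule cell markers were higher for 8 of 10 in F1 and for 9 of 10 in 129S6, where Prox1 was lower. Beside this and the following counts, 38.4% of all tested genes passed in F1 and 34.3% in 129S6, in either direction. Mature oligodendrocyte markers were higher for 8 of 8 and oligodendrocyte precursor markers lower for 7 of 7 in both strains. Their part in the subunit changes was not tested. Of the 22 anchoring and trafficking genes, 7 were higher and 5 lower in F1, and 8 were higher and 2 lower in 129S6. Dag1, the dystroglycan gene, fell by 0.40 ± 0.07 in F1 and by 0.41 ± 0.07 in 129S6. Of the 7 tested other subunit genes, 0 passed in F1 and 3 were higher in 129S6.

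The strains themselves differed little in these genes. At P24, with the seizure group left out, 1 of the 7 passed for F1 minus 129S6, against a background of 6.33% in either direction and 2.87% lower. Gabrb2 had a lowest, median and highest value of 260, 293 and 314 CPM in F1 (n = 5), against 312, 330 and 354 CPM in 129S6 (n = 6). The ranges overlapped, and the log2 difference of -0.19 ± 0.05 (adjusted p 0.0271) lost its call in 7 of 11 fits that left out 1 library, most without replicate 2 of the P24 F1 Scn1a+/- libraries (-0.11, adjusted p 0.401). The other 6 genes differed by -0.09 (Gabra4) to 0.05 (Gabrd) at P24. At P14 0 of the 7 passed, against 3.70% of tested genes. There Gabra5 was higher in F1 by 0.16 ± 0.06 (adjusted p 0.107), which became 0.00544 in a fit without the seizure libraries, and the other 6 differed by -0.15 (Gabrb1) to 0.10 (Gabra3).

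To set the extrasynaptic against the synaptic genes in each library, the mean log2 CPM of Gabra3, Gabrb1, Gabrb2 and Gabrg1 was subtracted from that of Gabrd, Gabra4 and Gabra5. The result was 0.117, 0.0632 and 0.0447 in the seizure libraries, 0.367 and 0.414 in P24 F1 Scn1a+/- without seizures, and 0.495, 0.401 and 0.550 in P24 F1 wild type. Seizure libraries were below all other P24 libraries. It was 0.203 to 0.301 in Scn1a+/- and 0.179 to 0.365 in wild-type P14 F1 libraries, and 0.0713 to 0.143 and 0.135 to 0.240 in P14 129S6. The P24 129S6 libraries lay at 0.390 to 0.448 (labelled Scn1a+/-) and 0.351 to 0.444 (labelled wild type). No p is given because the score is over a handful of chosen genes.

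The score rested mainly on Gabrd, since the seizure minus wild type differences of Gabra4, 0.18, and Gabra5, -0.35, had opposite signs. When CPM were summed within each class instead, so that the abundant genes weigh most, the seizure minus wild type difference was -0.0992 in place of -0.407, and the P24 minus P14 difference in F1 was -0.0264 in place of 0.180. With Gabra5 left out that age difference was 0.349.

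**Figure D5:**
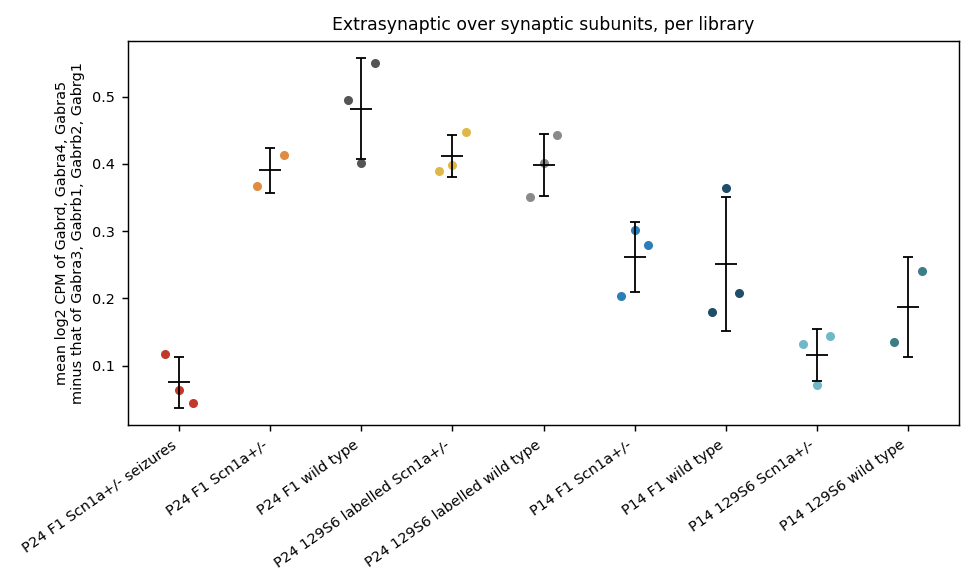
Mean log2 CPM of the 3 extrasynaptic genes minus that of the 4 synaptic genes (vertical axis, log2 units) for each library, with the mean and SD of each group in black. The 3 seizure libraries sit at 0.0447 to 0.117, below the other P24 libraries at 0.351 to 0.550.

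Across the 25 libraries, the 3 genes most like each subunit were found by Pearson correlation of log2 CPM over 14516 genes, as a description, since all points share the same ages, strains and seizure libraries. Gabrd ran with Hlf (r = 0.94), a transcription factor of the PAR bZIP family, Zcchc5 (0.94) and Rasgrf2 (0.93), which were at 0.85, 0.86 and 0.85 over the 22 libraries without seizures. Gabra4 ran with Pum2 (0.94), Kdm7a (0.92) and Stx3 (0.89). Gabra5 ran with Raver2 (0.94), Nsg2 (0.91) and Bhlhe22 (0.91), and without the seizure libraries the last was at 0.73. Gabrg1 ran with P2ry12 (0.93), Snn (0.93) and Gpm6b (0.93). Gabrb2 ran with Matr3, Dnm1l and Serinc1 (0.91 each), Gabrb1 with Cap1 (0.88), Sorl1 (0.86) and Sf3b3 (0.86), and Gabra3 less closely with Ntm (0.83), Sept6 (0.80) and Ngfr (0.80).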

How the data were processed

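RNA sequencing of pooled hippocampi, extracted with TRIzol and made into libraries with TruSeq RNA Library Preparation Kit v2 per the labels' protocols, gave 25 libraries in 9 groups. The authors deposited raw counts per gene symbol for each library; the build was mm10 and the tools TopHat2 2.1.0, CASAVA and HTSeq 0.6.1p1, per the submitters' processing notes. Neither annotation nor strand setting is given in the sources used here. The authors also deposited a table of normalized signal (counts times 1 factor per library), used only to check its columns against the count files: 19 matched their own group and 6, all P24 129S6, matched the group labelled with the other genotype.

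Counts of 15912 genes that passed filterByExpr (minimum count 10) were normalized by TMM and fitted by quasi-likelihood with 9 group means and 16 residual degrees of freedom (R 4.3.3, edgeR 4.0.16 on limma 3.58.1). Calls required an adjusted p (Benjamini-Hochberg, over all tested genes) under 0.05. The SE is the log2 fold change over the square root of F, and intervals are 95%. CPM use the effective library size. DESeq2 1.42.0, other filters, normalizations and sample sets were alternatives. Levels per length use GENCODE vM39 exon lengths, and promoter windows and coordinates come from RefSeq GRCm38.p6.

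The subunit genes and gene lists were chosen with earlier results of these data known. The rule for named genes takes all 7 subunit genes, Scn1a, up to 4 called members of a list with the smallest adjusted p, and the 3 genes most like each subunit. Prox1, C1ql2 and Gabra6 were named after their values were seen. Of the other subunits, only Gabra6 is given singly here. Replicates were numbered in accession order and pair no libraries. The fitting steps were tested on simulated counts.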

Additional observations from a re-analysis of the deposited data

Results flagged for a closer look

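The Scn1a+/- minus wild type differences of Gabrd and Gabrb1 pointed opposite ways in the P24 strains, with no overlap between genotypes in either strain. Lack of overlap was common, at 4634 of 15912 tested genes in P24 F1 and 1705 in P24 129S6 by labels. Of the 7 subunit genes it held for 3 in P24 F1 and 2 in P24 129S6, so it does not by itself set these genes apart. Gabrd was at 19.8 and 20.1 CPM in F1 Scn1a+/- against 24.9, 21.7 and 23.0 CPM in F1 wild type, and at 22.3, 21.4 and 21.7 CPM in the 129S6 libraries labelled Scn1a+/- against 19.7, 20.1 and 19.2 CPM in those labelled wild type. The F1 difference minus the 129S6 difference was -0.36 ± 0.15 on the log2 scale (edgeR p 0.0215, adjusted p 0.764), a test added after the values were seen. Gabrb1 was at 38.4 and 36.6 CPM in F1 Scn1a+/- against 42.4, 38.9 and 39.0 CPM in F1 wild type, and at 43.5, 42.8 and 40.9 CPM in 129S6 labelled Scn1a+/- against 39.6, 36.7 and 38.5 CPM in 129S6 labelled wild type. Its difference between strains was -0.25 ± 0.15 (edgeR p 0.108, adjusted p 0.769). Neither passed. The 129S6 labels are the ones that Scn1a itself went against. With the opposite genotype in 129S6 the differences between strains were -0.07 ± 0.15 for Gabrd and 0.05 ± 0.15 for Gabrb1 (edgeR adjusted p 1.00 each). In the authors' deposited table, whose columns carry the opposite genotype for these 6 libraries, the log2 ratio of Scn1a+/- over wild type in P24 129S6 was -0.15 for Gabrd, -0.14 for Gabrb1 and -0.34 for Scn1a. Which labels are right was not tested.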

How the results depend on the processing

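Over 11 comparisons, the 7 subunit genes gave 1071 alternative log2 differences, of which 979 kept their direction and side of the threshold, 41 lost a call, 14 gained one and 37 changed sign. Gabrd kept its calls in both seizure comparisons and both age comparisons under each alternative run. The number of subunits called with seizures against wild type was 2 to 4 when 1 library was left out, 4 with no filter on low counts and 1 with only the compared libraries, and against Scn1a+/- without seizures it was 1 with only the compared libraries. It was 3 for age in F1 with wild type alone (an alternative chosen after seeing the data), 0 to 1 for F1 minus 129S6 at P24 when 1 library was left out, and 1 for F1 minus 129S6 at P14 both without the seizure libraries and with only the compared libraries. The extrasynaptic minus synaptic score, with CPM summed, differed by -0.0992 (seizures minus wild type), -0.127 (seizures minus Scn1a+/- without seizures), 0.0281 (Scn1a+/- without seizures minus wild type), -0.0264 (P24 minus P14, F1) and 0.00478 (P24 minus P14, 129S6). Without Gabra5 the age differences were 0.349 in F1 and 0.380 in 129S6. Sign changes touched only uncalled values near 0. For F1 minus 129S6 at P24, Gabra3 was at 0.000301 with DESeq2 size factors, 0.00222 with no filter, 0.00166 without the seizure libraries and 0.00191 with only the compared libraries, and Gabrb2 for age in F1 wild type was at 0.0394. Leaving out 1 library gave Gabrb2 -0.176 to 0.0874 for seizures minus Scn1a+/- without seizures. For Scn1a+/- minus wild type it gave, in P24 F1, Gabra5 -0.0531 to 0.0751 and Gabrb2 -0.170 to 0.0935, in P24 129S6 by labels, Gabrg1 -0.111 to 0.00475, Gabra4 -0.0672 to 0.0515 and Gabrb2 -0.0656 to 0.0275, in P14 F1, Gabrd -0.0154 to 0.0904, Gabrb1 -0.124 to 0.0264, Gabrg1 -0.0229 to 0.0900 and Gabra4 -0.00361 to 0.0764, and in P14 129S6, Gabrb2 -0.0360 to 0.0118. It gave Gabrb2 -0.0758 to 0.0558 for age in F1. For F1 minus 129S6 it gave Gabra5 -0.0514 to 0.0126, Gabra3 -0.0306 to 0.0364 and Gabrg1 -0.00314 to 0.0802 at P24, and Gabra4 -0.0324 to 0.00783 and Gabrg1 -0.0499 to 0.0294 at P14. Counts over all genes that moved by over 1.5 times were 1615 (seizures minus wild type) and 633 (seizures minus Scn1a+/- without seizures) with only the compared libraries, where the main fit had 3579 and 2502. Scn1a+/- without seizures minus wild type in P24 F1 had 200 without the seizure libraries, 9 with no filter and 3 with only the compared libraries, where the main fit had 0. F1 minus 129S6 had 2104 at P24 and 991 at P14 without the seizure libraries, where the main fit had 1008 and 588, and the difference of age changes had 42 where the main fit had 1. The cause of these changes was not tested. No paired analysis was possible because replicate numbers follow accession order. At the depth of these libraries Gabrd is the least abundant of the 7 in CPM, so its counts carry the most sampling error.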
